A study of Mus musculus with 26 samples.

Results

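The genes described here are 31 genes of glucose use: the sugar and lactate carriers, the enzymes of glycolysis, the pentose phosphate pathway and lactate formation, and the switches at the entry of pyruvate to the mitochondrion. They were chosen by gene name and all 31 were found in both deposited tables, among 19404 genes listed for Brg1 deletion and 19719 for Brg1 knockdown. The study asked how cultured mouse pro-B cells depend on Brg1, the ATPase of the SWI/SNF chromatin remodelling complexes, encoded by Smarca4. All cells were B220+ cells of the bone marrow kept for 7 days with IL7 and SCF. In the deletion experiment, on the C57/Bl6 strain, the control group was Brg1+/+ x ER-Cre (2 libraries) and the deleted group was Brg1F/F x ER-Cre (2 libraries). Both carried the ER-Cre recombinase, whose promoter is not given in the sources used here, and both received tamoxifen at 0.3 µM during the final 60 hours. The knockdown experiment used Rag1-/- cells of the same strain, in which antigen receptor genes cannot be rearranged. These were infected on days 3 and 4 with retrovirus for a control shRNA (3 libraries) or for a shRNA against Brg1 (3 libraries), and infected cells were enriched with hCD25 beads. No animal age or number of animals was given in the sources used here, so p-values measure only the spread between these libraries, which may be technical.

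Glycolysis splits glucose into pyruvate in a run of cytosolic reactions. Its upper steps spend ATP and cut the sugar, its lower steps return ATP and NADH, and lactate dehydrogenase renews the NAD+ that the lower steps need. The pentose phosphate pathway branches off after the first step, and its oxidative arm makes NADPH while its non-oxidative arm interconverts sugars and feeds ribose to nucleotide synthesis. Dividing lymphoid cells are known for running glycolysis to lactate even with oxygen at hand.

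The deposited tables give 1 mean per group in normalized reads, that is, reads divided by a library size factor. Such values are called the authors' means here and have no SD. In the deletion table each mean could be written as whole reads of the 2 libraries behind it, with a single solution in both groups for 95.5% of genes. The libraries held about 10761457 and 10219381 reads for the control group and 11578641 and 8790619 for the deleted group. In these totals the most balanced solution was taken where there was more than 1. Since no replicate number is known for them, the libraries are called deeper or shallower by their size factors. In the deeper and shallower library, 1 read counted as 0.975 and 1.001 normalized reads in controls and as 0.864 and 1.163 after deletion. The tables of the 2 experiments were normalized apart, and values from them are set side by side without a test. The targeted gene, Smarca4, had an authors' mean of 17898 in controls and 6067 after deletion (adjusted p = 0.0008 in the authors' deposited table). With control and Brg1 shRNA it had 13340 and 6743 (adjusted p = 0.0472 there). All 12 pro-B markers were listed in both tables, with summed authors' means of 54484 in controls and 79973 in deleted cells, and of 44206 and 50732 in the knockdown experiment. They did not move as a set: 6 lay above and 6 below the control mean in each table, Cd79b rose after deletion, and Dntt, the terminal transferase gene, had 1560 and 986 normalized reads in the deeper and shallower control and 81.2 and 592 in the deeper and shallower deleted library. Markers of myeloid cells were present as well. The 11 listed macrophage and monocyte markers summed to 5230 in controls and 3688 after deletion, and to 2741 and 7719 in the deeper and shallower control library and 5285 and 2092 in the deeper and shallower deleted library. The neutrophil and granulocyte precursor markers summed to 3398 and 913, and 3 of the 11 listed ones, Prtn3, Ctsg and Elane, fell. Per library, the 10 of them that could be resolved summed to 1537 and 906 in the controls and 63.9 and 736 in the deleted libraries. S100a9, a gene of mature neutrophils, had 182 and 2 in the controls and 0.864 and 134 after deletion, so that the deeper control and the shallower deleted library were alike in it, as they were in macrophage markers. Genes listed as markers of plasmacytoid dendritic cells summed to 7224 and 11824, with a called rise of Irf8. Per library, the 6 of these genes that could be resolved summed to 775 and 2366 in the controls. In the deleted libraries they summed to 2348 and 1200, so the groups overlapped. Which cells expressed them was not tested. Thy1, from the stroma and fibroblast list, fell from 307 and 224 to 55.3 and 29.1. In the Rag1-null cells the same lists summed to 364 and 424 for macrophages and to 230 and 201 for neutrophils. The plasmacytoid dendritic list summed there to 7440 and 9993. The part of these cells in the values below was not tested, and in bulk RNA fewer cells of a type and less RNA per cell cannot be told apart.

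The promoters of 4 of the genes are shown because 3 of them, Pgam1, Eno1 and Ldha, are among the genes that fell after deletion, and the fourth, Pgk1, had one of the larger differences in mean. Each line gives the 250 bases before the RefSeq transcription start (build GRCm38.p6), 5′ to 3′ on the gene's strand, with matches to 3 motifs in capitals, searched on both strands. CACGTG is the E-box that Myc and related factors bind. The cores of hypoxia response elements are ACGTG, which reads CACGT where it lies on the opposite strand, and GCGTG, which then reads CACGC. The windows lie at chr19:41911621-41911870 on the plus strand for Pgam1, chr4:150236458-150236707 on the plus strand for Eno1, chr7:46845554-46845803 on the plus strand for Ldha and chrX:106186850-106187099 on the plus strand for Pgk1.
Pgam1: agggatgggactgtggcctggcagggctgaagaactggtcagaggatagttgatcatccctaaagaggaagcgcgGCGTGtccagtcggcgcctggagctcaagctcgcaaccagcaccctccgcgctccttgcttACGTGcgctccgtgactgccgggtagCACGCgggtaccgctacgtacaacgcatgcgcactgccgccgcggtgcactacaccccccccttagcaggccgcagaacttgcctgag
Eno1: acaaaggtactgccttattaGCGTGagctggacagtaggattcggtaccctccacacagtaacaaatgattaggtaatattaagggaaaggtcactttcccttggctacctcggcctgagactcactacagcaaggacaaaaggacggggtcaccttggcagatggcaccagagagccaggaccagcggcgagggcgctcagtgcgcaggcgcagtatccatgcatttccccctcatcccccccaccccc
Ldha: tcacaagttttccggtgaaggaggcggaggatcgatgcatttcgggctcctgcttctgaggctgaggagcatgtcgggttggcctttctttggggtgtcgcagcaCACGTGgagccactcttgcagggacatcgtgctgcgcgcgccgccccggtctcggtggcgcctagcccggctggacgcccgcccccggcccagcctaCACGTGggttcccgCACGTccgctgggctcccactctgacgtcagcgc
Pgk1: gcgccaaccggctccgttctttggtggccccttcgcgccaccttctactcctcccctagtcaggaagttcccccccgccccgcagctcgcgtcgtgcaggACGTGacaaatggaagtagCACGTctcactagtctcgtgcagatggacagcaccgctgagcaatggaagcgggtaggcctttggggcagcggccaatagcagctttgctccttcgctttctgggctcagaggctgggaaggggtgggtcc
The Ldha window held 2 CACGTG and 5 ACGTG matches, of which each CACGTG contributes 2, 1 per strand. It is the nearer of 2 RefSeq windows of that gene and lies inside the deposited gene span, 4329 bases from its start. Pgam1 had 1 ACGTG and 2 GCGTG matches, and Pgk1 had 2 ACGTG matches. Eno1 had 1 GCGTG match in the printed window, the nearest of its 3 RefSeq windows to the deposited gene start. In the window of Tpi1, the remaining gene that fell, none of these letters was found.

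Of the 31 genes, 30 had a RefSeq window, and Slc2a3 was the exception. For each gene only the window nearest its deposited start was taken, whereas the share of all windows counts every window of every gene. CACGTG was in 4 of the 30 windows, those of Ldha, Slc16a1, Pfkm and Pfkfb3, or 13.3%, against 6.02% of all 32851 windows of the same length. Pfkm had 4 RefSeq windows and Pfkfb3 had 2, so their matches belong to 1 of several possible starts. Either hypoxia core was in 25 of them, 83.3%, against 38.6% of all windows. The cores hold a CG pair, and the median G and C content was 60.4% in the 30 windows and 52.4% in all. Of the 4 genes with a CACGTG only Ldha fell after deletion, beside 4 of all 31 genes. The authors' means of Slc16a1, Pfkm and Pfkfb3 were 1.32 times higher, 1.12 times higher and 1.19 times lower. Control and deleted libraries overlapped in Slc16a1, Pfkm and Pfkfb3, and whether the motif goes with a fall was not tested.

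After Brg1 deletion, RNA of 4 of the 31 genes fell and that of none rose: Pgam1, Eno1, Tpi1 and Ldha passed an adjusted p under 0.05 in the authors' deposited table, against 0.742% of all listed genes with a fall and 0.732% with a rise. They encode enzymes of the path from triose phosphates to lactate. Their authors' means were 3.61, 3.34, 2.54 and 3.08 times lower than in controls. A value below the control mean was found for 26 of the 31 genes (50.1% of all listed genes), at least 1.5 times below for 18 (20.5%), and below with an unadjusted p under 0.05 for 13 (5.29%). No gene of the 31 was above its control with an unadjusted p under 0.05 (4.23% of all listed genes). The median log2 fold change of the 31 genes, Brg1-depleted over control, was -0.71, beside -0.0014 for all listed genes. This median is the value of Ldhb, which had only 8 and 5 reads in controls and 5 and 3 after deletion. For the 27 genes with a mean of at least 100 the median was -0.86. Summed per gene length, the 31 genes had 1761 RPKM in controls and 997 after deletion, where RPKM is computed here as normalized reads per kilobase of exon per 1000000 normalized reads of the group.

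After Brg1 knockdown none of the 31 genes passed an adjusted p under 0.05 in the authors' deposited table, where 0.0406% of all listed genes fell and 0.177% rose, 0.218% in all. The smallest adjusted p, 0.086, was that of Pgam1, with a mean 2.05 times lower, followed by 0.215 for Pfkp. Of the 31 genes, 25 lay below the control mean (50.3% of all listed genes), 13 by at least 1.5 times (13.4%), and 10 with an unadjusted p under 0.05 (1.08%). None was above it at that p (1.67% of all listed genes). Their median log2 fold change was -0.41, beside -0.0028 for all genes. The summed level per length was 2178 RPKM with the control shRNA and 1528 with the Brg1 shRNA.

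**Figure D1:**
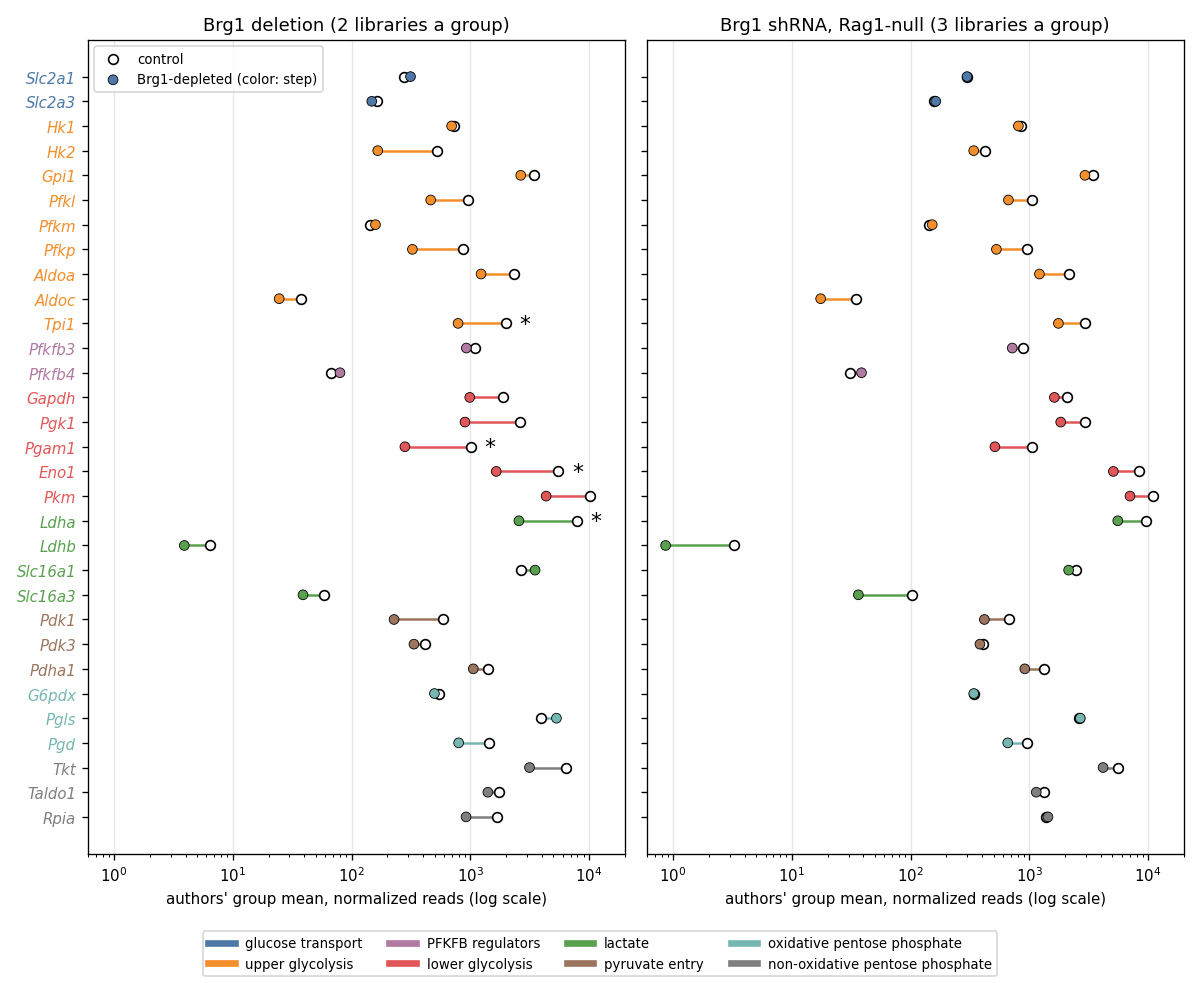
Authors' group mean of each of the 31 genes in normalized reads (log axis) in controls (open circles) and Brg1-depleted cells (filled, colored by step), for deletion on the left and knockdown on the right. Asterisks mark an adjusted p under 0.05 in the deposited table, found for Tpi1, Pgam1, Eno1 and Ldha after deletion and for none of the 31 after knockdown.

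Glucose carriers differed little in either experiment. Slc2a1, the widespread glucose carrier GLUT1, had 284 and 265 normalized reads in the deeper and shallower control library and 421 and 207 in the deeper and shallower deleted library. The deleted libraries lay on either side of the controls, which a mean of 274.5 against 313.9 does not show (unadjusted p = 0.6242 in the authors' deposited table). With shRNA the authors' means were 299.6 and 298.7. Slc2a3, the high-affinity carrier GLUT3, had authors' means of 165 and 148 for deletion and of 159 and 163 for knockdown. Neither carrier reached a 1.5-fold difference in either table. The median log2 fold change of the pair was 0.02 in both experiments.

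The upper steps, from hexokinase to triose phosphate isomerase, held 9 of the genes. One of them, Tpi1, fell after deletion, 8 lay below the control mean in each table, and the median log2 fold change was -0.92 after deletion and -0.67 after knockdown. Hexokinases trap glucose in the cell as glucose 6-phosphate. Hk2, the inducible hexokinase, had 684 and 365 normalized reads in controls and 121 and 212 in deleted cells. Both controls lay above both deleted libraries, but the controls were 1.87 times apart from each other, and the authors' means of 524 and 166 did not pass (adjusted p = 0.3781 in their deposited table). In Rag1-null cells the Hk2 means were 423 and 340.2, a log2 fold change of -0.31. Hk1, the constitutive hexokinase, had 803 and 663 normalized reads in controls and 580 and 814 in deleted cells, so that the groups overlapped.

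Hexokinase make-up was compared per gene length. In the pro-B controls Hk1 made up 39.8%, Hk2 40.6% and Hk3, a hexokinase of myeloid cells that is not among the 31 genes, 19.6% of the family sum. After deletion the shares were 59.5% for Hk1, 20.3% for Hk2 and 20.2% for Hk3. In Rag1-null cells Hk3 was 1.67% with the control shRNA and 2.28% with the Brg1 shRNA, while Hk2 was 40.7% and 36.7%. The Hk1 level itself was nearly the same in both groups, 8.3 and 8.08 RPKM for deletion and 11.3 and 11 RPKM for knockdown. Its larger share after deletion therefore restates lower levels of Hk2, 8.48 and 2.75 RPKM, and of Hk3, 4.09 and 2.75 RPKM. After knockdown Hk2 was lower, at 7.98 and 6.62 RPKM, and Hk3 was not, at 0.326 and 0.412 RPKM. Neither Hk2 nor Hk3 passed the test in either experiment.

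Gpi1, which turns glucose 6-phosphate into fructose 6-phosphate, had authors' means of 3441 and 2661 in the deletion table (log2 fold change -0.37) and of 3458 and 2942 in the knockdown table (-0.23). Phosphofructokinase, the committed step, is made from 3 genes. Pfkl, the liver-type subunit, had 1120 and 786 normalized reads in the controls and 403 and 526 after deletion, without overlap (adjusted p = 0.155 in the authors' deposited table). Pfkp, the platelet-type subunit, had 1183 and 552 in the controls and 285 and 366 after deletion, again without overlap but with controls 2.14 times apart (adjusted p = 0.7723). The muscle-type subunit gene Pfkm went the other way in its means, 142 and 159, with 178 and 106 in controls and 116 and 202 in deleted cells. Per length, Pfkm made up 13.5% of the 3 genes in controls and 27.7% after deletion, and 12.3% and 19.8% in the knockdown experiment.

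**Figure D2:**
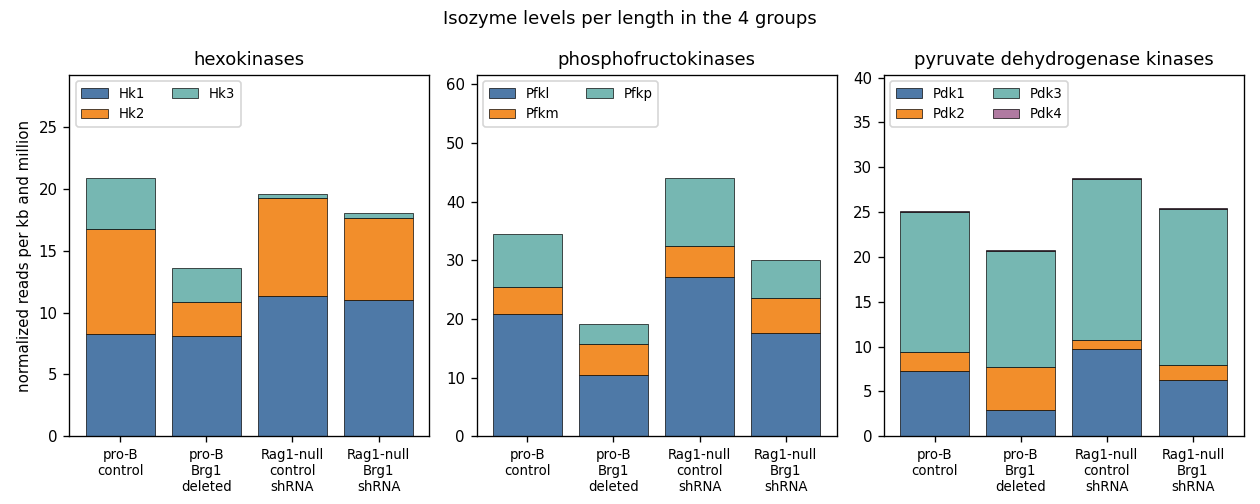
Level per gene length, in normalized reads per kilobase per 1000000 of the group's column total (RPKM), of the hexokinase, phosphofructokinase and pyruvate dehydrogenase kinase genes, stacked by gene in the 4 groups. The hexokinase sum was 20.9 in pro-B controls and 13.6 after deletion, with 8.48 and 2.75 for Hk2 and 8.3 and 8.08 for Hk1.

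Aldolase cuts fructose 1,6-bisphosphate. Aldoa supplied nearly all of it, 98.7% of the pair per length in both control groups, and had 2370 and 2279 normalized reads in controls and 1407 and 1058 after deletion. The 2 controls were close together and well above the deleted libraries, with authors' means 1.89 times apart (adjusted p = 0.2416 in the deposited table). With shRNA the Aldoa means were 2151 and 1217 (1.77 times lower, unadjusted p = 0.0243). Aldoc, the brain aldolase, was low, at authors' means of 37.5 and 24.6 for deletion and of 34.8 and 17.5 for knockdown.

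Tpi1, triose phosphate isomerase, which brings both products of the cut sugar into the lower steps, lies on chromosome 6 (mm10, 124810586 to 124814296, minus strand). Its authors' mean was 2007 in controls and 789.6 after deletion, and it fell by 1.35 on the log2 scale (adjusted p = 0.0097 in the authors' deposited table). Whole reads gave 649 and 930 normalized reads for the deleted libraries, while the control mean had 2 solutions, 2205 and 1810 or 269 and 3746. Only the first of these keeps both controls above both deleted libraries. After knockdown the Tpi1 means were 2937 and 1759 (1.67 times lower, unadjusted p = 0.0122). Tpi1 also carries a confounded mark in the deposited table, which is not defined in the sources used here and which 12 of the 31 genes share. The others are Slc2a1, Slc2a3, Hk1, Hk2, Gpi1, Pfkm, Pfkp, Pdha1, G6pdx, Pgls and Tkt.

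Pfkfb3 and Pfkfb4 make and remove fructose 2,6-bisphosphate, the activator of phosphofructokinase. Pfkfb3 had 1353 and 852 normalized reads in controls and 630 and 1223 after deletion, with overlapping groups, and Pfkfb4 had 66.3 and 69.1 in controls and 95.9 and 64 after deletion. Neither passed the test in either table. The median log2 fold change of the pair was -0.01 after deletion and 0.01 after knockdown.

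The lower steps showed the lowest median after deletion among the 8 step groups. All 5 genes, Gapdh, Pgk1, Pgam1, Eno1 and Pkm, lay at least 1.5 times below the control mean, 2 of them fell, and the median log2 fold change was -1.54. After knockdown all 5 lay below the control mean as well, 4 by at least 1.5 times, with a median of -0.68.

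Pgam1, phosphoglycerate mutase, which moves the phosphate group of 3-phosphoglycerate, lies on chromosome 19 (mm10, 41911871 to 41918664, plus strand). It had 1099 and 933 normalized reads in controls and 315 and 248 after deletion. Both deleted libraries were far below both controls, and the libraries within each group were near each other. The authors' means were 1016 and 282, and Pgam1 fell by 1.85 on the log2 scale (adjusted p = 0.0003 in the authors' deposited table). This was the lowest log2 fold change of the 31 genes in the deletion table. In Rag1-null cells the Pgam1 means were 1053 and 513, a log2 fold change of -1.04.

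Eno1, the enolase gene, whose product forms phosphoenolpyruvate, lies on chromosome 4 (mm10, 150236721 to 150248879, plus strand). Its authors' means were 5533 and 1655, and it fell by 1.74 on the log2 scale (adjusted p = 0.0003 in the deposited table). The deleted libraries had 1813 and 1497 normalized reads, and the control mean resolved to 4883 and 6183 or to 9247 and 1818. For Eno1 without its copies, both controls were under either solution above both deleted libraries, though in the second the 1818 of a control is almost equal to the 1813 of a deleted library. The knockdown means were 8436 and 5102, a log2 fold change of -0.73 (unadjusted p = 0.0046, adjusted p = 0.8385).

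Gapdh, which oxidizes glyceraldehyde 3-phosphate and makes NADH, had 1991 and 1783 normalized reads in controls and 926 and 1055 after deletion. The groups were apart by more than the spread within either, though the adjusted p in the authors' deposited table was 0.1848. After knockdown its means were 2089 and 1626, or 1.28 times lower. Pgk1, phosphoglycerate kinase, the first ATP-forming step, had 3517 and 1723 in controls and 805 and 1000 after deletion. Here the deeper control was 2.04 times the shallower one, both were above the deleted libraries, and the adjusted p was 0.6059. Pkm, pyruvate kinase, the last ATP-forming step, had authors' means of 10135 and 4356 for deletion (2.33 times lower, unadjusted p = 0.0143) and of 10948 and 7042 for knockdown (1.55 times lower, unadjusted p = 0.0088). Its reads per library could not be resolved to 1 solution.

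**Figure D3:**
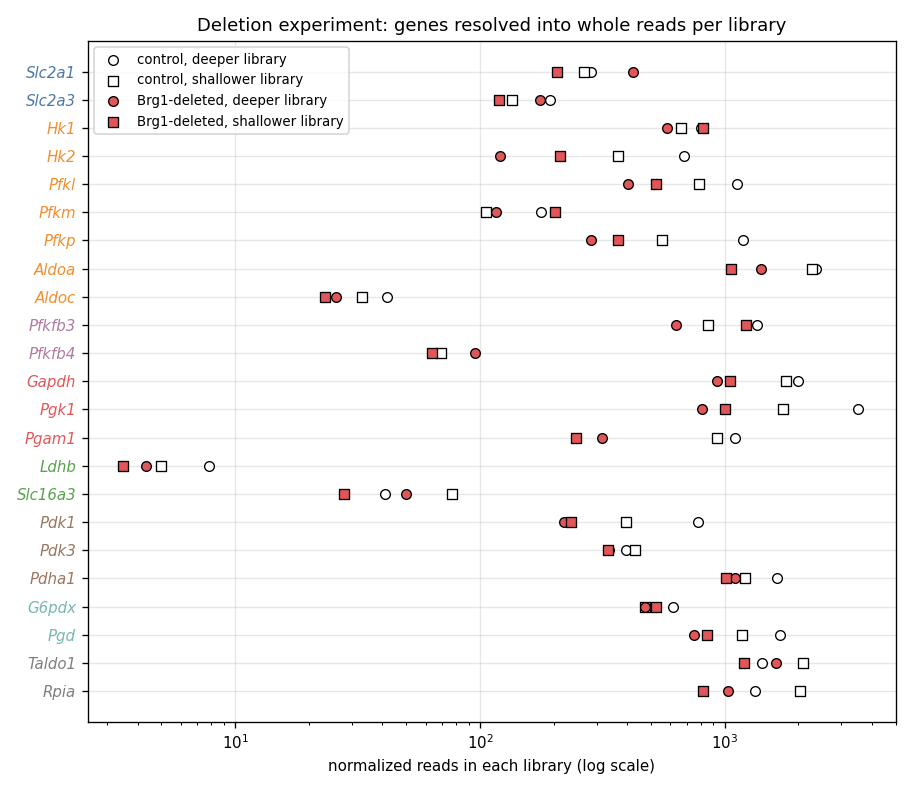
Normalized reads in each of the 4 deletion libraries (log axis) for the 23 genes whose means resolved to 1 whole-read solution, with controls open and Brg1-deleted libraries filled. Both controls lie above both deleted libraries in 14 genes, among them Pgam1 at 1099 and 933 against 315 and 248, and the groups overlap in the other 9.

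Across the 23 genes with 1 whole-read solution, both controls were above both deleted libraries in 14, against 23.6% of the 16944 resolved genes that average 1 normalized read or more. In the other 9 the groups overlapped, and in none were both controls below. The 3 lower-step genes that could be resolved, 5 of 7 in the upper steps and all 3 at pyruvate entry were among the 14. The 2 controls differed by at least 1.5 times in 9 of the 23 genes, and in 7 of these, Pgk1, Pfkp, Hk2 and Pdk1 among them, the deeper control was the higher one. Between these controls, neutrophil markers were higher in the deeper one and macrophage markers in the shallower one, as given above, and their part in the spread was not tested. Unresolved were Gpi1, Tpi1, Eno1, Pkm, Ldha, Slc16a1, Pgls and Tkt, which include 3 of the 4 genes that fell. A limma fit on the resolved reads, in which Pgam1 was therefore the only one of the 4, called 0 of the 23 genes and 0 of 16944 in all. At an unadjusted p under 0.05 it held 10 of the 23, all lower, and 2859 of 16944. Pgam1 had the smallest adjusted p of the 23 in limma, 0.126, with a log2 fold change of -1.85 ± 0.21 (SE).

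Of the 4 genes of lactate formation and transport, 3 lay below the control mean after deletion and all 4 after knockdown, 3 of them by at least 1.5 times in each table. Their median log2 fold change was -0.66 after deletion and -1.15 after knockdown, where Ldhb and Slc16a3 are low in reads. Ldha, the lactate-forming subunit, lies on chromosome 7 (mm10, 46841475 to 46855627, plus strand). Its authors' means were 7921 in controls and 2569 after deletion, and it fell by 1.62 on the log2 scale (adjusted p = 0.04 in the deposited table). The deleted libraries had 2286 and 2851 normalized reads, while 4 pairs of values could make up the control mean, and 2 of the 4, 9538 and 6305 or 3238 and 12604, keep both controls above both deleted libraries. The knockdown means of Ldha were 9643 and 5562, 1.73 times lower (unadjusted p = 0.0021, adjusted p = 0.5085). Ldhb, the heart-type subunit, was near the floor of detection, with 8 and 5 reads in controls and 5 and 3 after deletion, and Ldha made up 99.8% of the pair per length in pro-B controls.

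Slc16a1, the lactate and pyruvate carrier MCT1, was one of 5 genes with a higher mean after deletion, 2667 in controls against 3514 (unadjusted p = 0.7859 in the authors' deposited table). Its controls resolved to 3571 and 1764 normalized reads and its deleted libraries to 1622 and 5405 or 5040 and 1987, so the groups overlapped either way. In the knockdown experiment the Slc16a1 means were 2467 and 2144. Slc16a3, the carrier MCT4 of strongly glycolytic cells, was low, at 41 and 77.1 normalized reads in controls and 50.1 and 27.9 after deletion. Its knockdown means were 103 and 36.3, a log2 fold change of -1.50 with an unadjusted p of 0.1208. Slc16a1 made up 98.2% of the pair per length in pro-B controls and 99.1% after deletion.

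At the entry of pyruvate to the mitochondrion, Pdk1, a kinase that switches off pyruvate dehydrogenase, had 781 and 396 normalized reads in controls and 221 and 235 after deletion. The deleted libraries were alike and below both controls, which themselves were 1.97 times apart, and the adjusted p in the authors' deposited table was 0.6537. After knockdown its means were 672 and 418 (unadjusted p = 0.0306). Pdk3, another such kinase, had 397 and 432 in controls and 336 and 335 after deletion, and Pdha1, the catalytic subunit that they act on, had 1637 and 1205 in controls and 1105 and 1016 after deletion. Per length, Pdk1 made up 29% of the 4 kinase genes in pro-B controls and 14% after deletion, while Pdk2, which is not among the 31 genes, made up 8.37% and 23%. Pdk2 had 79 and 59 normalized reads in controls and 161 and 145 after deletion, with an adjusted p of 0.2721 in the deposited table. In Rag1-null cells Pdk1 was 33.8% and 24.5% and Pdk2 3.61% and 6.82% of the kinase sum.

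None of the 6 pentose phosphate genes passed the test in either table, and the arms differed in their medians. For the oxidative arm the median log2 fold change was -0.13 after deletion and 0.01 after knockdown. G6pdx, glucose 6-phosphate dehydrogenase, the NADPH-forming entry step, had 616 and 472 normalized reads in controls and 473 and 526 after deletion, with overlap. Pgls, 6-phosphogluconolactonase, had authors' means of 3913 and 5319 for deletion, the largest log2 fold change above 0 of the 31 genes there (0.44, unadjusted p = 0.6479), and of 2638 and 2688 for knockdown. Pgd, the second NADPH-forming dehydrogenase, was lower within this arm, with 1682 and 1180 in controls and 749 and 848 after deletion, without overlap (unadjusted p = 0.0119, adjusted p = 0.299 in the authors' deposited table). Its knockdown means were 955 and 658 (unadjusted p = 0.0307).

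For the non-oxidative arm the median log2 fold change was -0.86 after deletion and -0.21 after knockdown. Tkt, transketolase, which moves carbon units between sugars, had authors' means of 6429 and 3154 for deletion, a log2 fold change of -1.03 (adjusted p = 0.0957 in the deposited table). Its deleted libraries had 2908 and 3400 normalized reads, and 1 of the 3 solutions for controls, 7134 and 5723, keeps both controls above them. With shRNA the Tkt means were 5571 and 4179. Rpia, ribose 5-phosphate isomerase, had 1325 and 2031 in controls and 1029 and 814 after deletion, without overlap, but knockdown means of 1389 and 1435. Taldo1, transaldolase, had 1421 and 2089 in controls and 1618 and 1195 after deletion, with overlap.

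**Figure D4:**
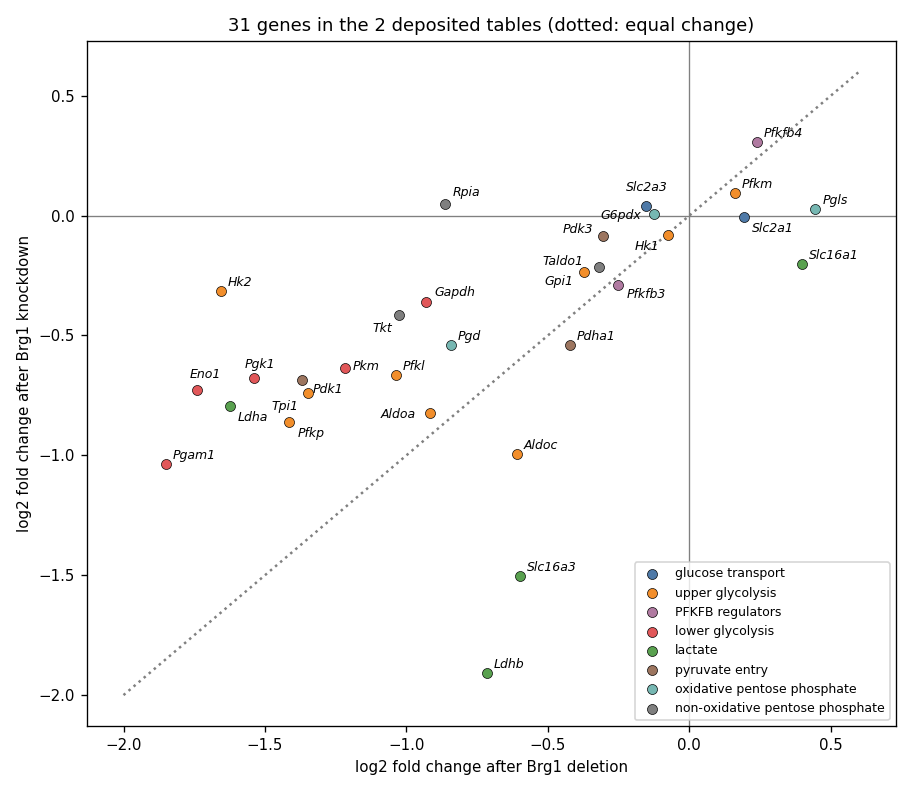
Log2 fold change (Brg1-depleted over control) of the 31 genes after deletion (x axis) against knockdown (y axis), colored by step, with a dotted line of equal change. The 5 lower-step genes lie between -1.85 and -0.93 after deletion and between -1.04 and -0.36 after knockdown, and 23 of the 31 genes are below 0 in both.

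The experiments, which share no samples, were set side by side gene by gene. A mean below its control in both was found for 23 of the 31 genes, against 35.6% of the 17846 genes listed in both tables, and at least 1.5 times below in both for 13, against 5.13%. Of the 23, 17 were lower by more after deletion, a share near the 75.6% among all 6351 genes below 0 in both. The 13 are every gene that reached 1.5-fold in the knockdown table, and 13 of the 18 that did so in the deletion table. Hk2 and Rpia were among those that differed between the experiments, with log2 fold changes of -1.66 and -0.86 after deletion and of -0.31 and 0.05 after knockdown. Slc16a3 and Ldhb, both low in reads, were lower by more in the knockdown table, at -1.50 and -1.91. Over the 31 genes the fold changes of the 2 tables had a Pearson r of 0.559 and a Spearman rho of 0.699, beside 0.348 and 0.454 over all genes listed in both. Genes are not independent replicates, and the differences between experiments were not tested.

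Per gene length, Pkm and Ldha were the most abundant of the 31 genes in both control groups. Pkm had 376 RPKM in pro-B controls and 474 in Rag1-null controls, and Ldha had 256 and 364. After deletion Pkm had 166 and Ldha 85.2, and Pgls, at 140, stood between them. Pgls carries the undefined confounded mark, and its reads per library could not be resolved to 1 solution. After knockdown the order of Pkm (315) and Ldha (217) was kept, with Eno1 (110) behind them. The log2 control means of the 31 genes in the 2 tables had a Pearson r of 0.988.

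Near-identical gene copies limit how exactly some of these genes can be counted. Short reads from a gene and its processed copies can be split between them by the counting step, so the lower-step genes were also summed with the copies listed by name or description, a choice made after the values were seen. Pgam1-ps2, a Pgam1 pseudogene, had more reads than Pgam1 itself, with authors' means of 1353 and 630 for deletion (adjusted p = 0.0814 in their deposited table), and 1427, 1279, 612 and 648 normalized reads in the deeper control, shallower control, deeper deleted and shallower deleted library. The sum of Pgam1 and this copy was 2526 and 2212 in controls and 927 and 895 after deletion. With its listed copies Pgam1 had a log2 fold change of -1.38 after deletion and -0.72 after knockdown, in place of -1.85 and -1.04. The enolase copy Gm5506 had 4007 and 657 normalized reads in controls and 621 and 2037 after deletion, with overlap, and is not among the genes of the knockdown table used here. Eno1 with Gm5506 had 2434 and 3534 after deletion, and 8890 and 6840 or 13254 and 2475 in controls, so that under the second solution the groups overlapped. Eno1 and its copies together had a log2 fold change of -1.40 in place of -1.74.

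Gm5559, a Gapdh pseudogene, fell after deletion, from an authors' mean of 429 to 124 (adjusted p = 0.0011 in the deposited table). It was 1 of 77 Gapdh copies listed there. Gapdh with all its listed copies had a log2 fold change of -0.91 after deletion and -0.34 after knockdown, against -0.93 and -0.36 alone. Pgk1 with Pgk1-rs7 had 3928 and 2452 in controls and 890 and 1292 after deletion, a log2 fold change of -1.55. Copies of Ldha, Pkm and Aldoa made up less than 1% of the respective sums in either table, and none was listed for Tpi1.

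**Figure D5:**
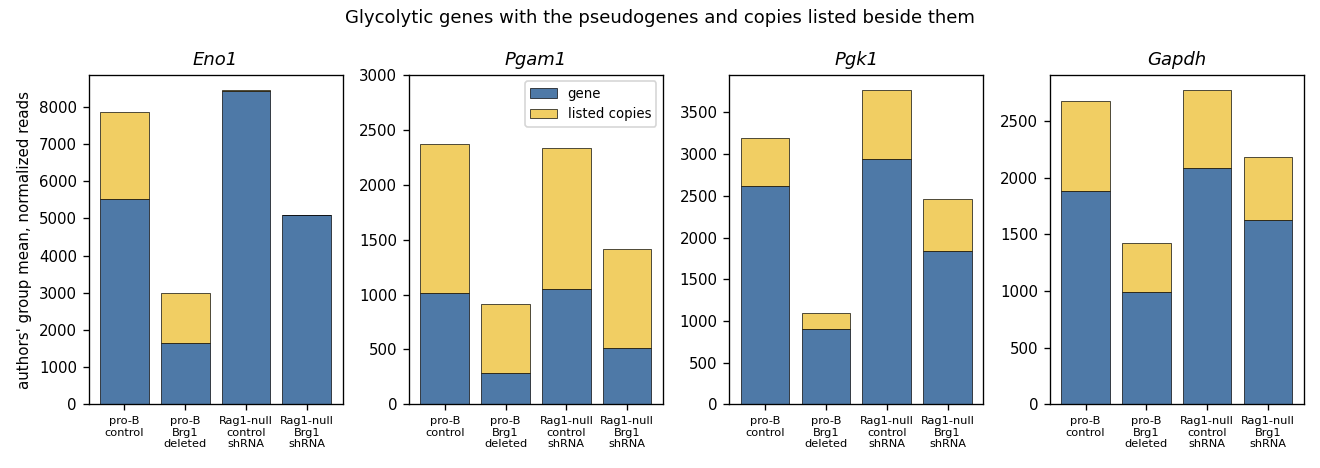
Authors' group means in normalized reads of 4 lower-step genes (blue) with the summed means of their listed copies (yellow) in the 4 groups. The copies made up 57.1% of the Pgam1 sum in pro-B controls and 69.1% after deletion, and 29.7% and 44.6% of the Eno1 sum.

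Other genes of sugar use were counted from lists drawn up around the pathway. Of 18 listed isozymes and side steps, 12 hexose and monocarboxylate carriers, 8 pyruvate dehydrogenase genes, 6 further pentose phosphate genes, 19 citrate cycle and shuttle genes and 14 glycogen and hexosamine genes, only Slc2a8 passed the test after deletion. Of all listed genes 1.47% passed it, so calls in these lists were about as frequent as elsewhere. Slc2a8, an intracellular glucose carrier, rose from 81.9 and 62 normalized reads in controls to 290 and 314 (adjusted p = 0.0005 in the authors' deposited table), and its knockdown means were 62.7 and 129 (unadjusted p = 0.0436). Citrate cycle and shuttle genes lay below the control mean in 18 of 19 after deletion (50.1% of all listed genes). After knockdown 15 of 19 did (50.3% of all listed genes). Their medians were -0.38 and -0.24, with no call. The lowest adjusted p among them was that of Idh3a, a subunit of isocitrate dehydrogenase, with 1186 and 838 in controls and 443 and 535 after deletion (adjusted p = 0.1239).

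Among 32 regulators of glucose uptake and glycolysis, Bcl6 alone passed the test after deletion, against 1.47% of all listed genes. Bcl6, a transcriptional repressor of the B lineage, rose from 57.5 and 145 normalized reads to 556 and 447 (adjusted p = 4.97e-06 in the authors' deposited table), and had knockdown means of 54.1 and 163 (unadjusted p = 0.0217, adjusted p = 1). Myc, an activator of glycolytic genes, had authors' means of 1938 and 517 for deletion (adjusted p = 0.146) and of 1743 and 1242 for knockdown. Hif1a, the oxygen-regulated activator of many of these genes, had 1391 and 1075 in controls and 946 and 1193 after deletion, with overlap. Txnip, a brake on glucose uptake, had 662 and 1502 in controls and 4558 and 1358 after deletion, with overlapping groups. Of 18 hypoxia targets outside glycolysis, Mif, a cytokine gene, fell after deletion, from an authors' mean of 2175 to 932 (adjusted p = 0.0287). Falls were called for 0.742% of all listed genes. Among the other targets 9 lay below the control mean and 8 above. No gene of these lists passed the test after knockdown, where 0.218% of all listed genes did.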

How the data were processed

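RNA sequencing of 10 libraries in 4 groups was used; the other 16 samples of the series were not analysed here. CASAVA, RSEM and DESeq, with the mm10 build, are named in the submitters' processing notes without versions. The mean columns hold a signal, normalized reads averaged per group by the authors, as the file headers and values show. Per the file headers, the log2 fold change, the linear fold, the p-value and its Benjamini-Hochberg adjustment come from the authors' test. Exon lengths are as deposited.

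The 31 genes, the gene lists and the tests were chosen with earlier results of these data known. Calls are the deposited adjusted p under 0.05, since the tables hold 1 mean per group. Recovered reads allowed another test for part of the deletion table only. Levels per length are means per kilobase of exon per 1000000 of the column total (RPKM). Whole reads per library were recovered from the deletion means (tolerance 6.0e-05). A solution was found for all 19404 genes, and for 95.5% it was the only one in both groups; in the knockdown table, with 3 libraries a group, this was not attempted. As an alternative, limma 3.58.1 in R 4.3.3 was fitted with a trend on the log2 scale to the recovered reads, with 0.5 added and divided by the size factor, for the 16944 resolved genes averaging at least 1. Recovery and fit were tested on simulated data. Other alternatives were an adjusted p of 0.1, a 1.5-fold minimum, adjustment over listed genes or those with a mean of at least 10, genes without the confounded mark, pseudocounts of 1 and 10, and centring. Named genes were the 31, every gene of the other lists called in either table, Hif1a, Myc, Txnip, Bcl6 and Smarca4. Of the 3 genes with the smallest adjusted p per list after deletion, only some were named. Hk3, the gene copies and marker genes were named after their values were seen. Promoters are from RefSeq. Python 3.11.15, numpy 2.4.6, pandas 2.3.3 and matplotlib 3.10.9 were used.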

Additional observations from a re-analysis of the deposited data

How the results depend on the processing

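Among the 31 genes, the 4 calls after deletion held with a 1.5-fold minimum, with adjustment over listed genes and over those with a mean of at least 10. At an adjusted p of 0.1 there were 5 with Tkt added, and 3 without genes marked as confounded, which leaves out Tpi1. With limma on recovered reads, where Pgam1 alone of the 4 could be tested, 0 of 23 genes were called. After knockdown 1 gene, Pgam1, was called at an adjusted p of 0.1, and 1, again Pgam1, with adjustment over genes with a mean of at least 10. The median log2 fold change after deletion was -0.59 with a pseudocount of 1, -0.49 with 10, -0.86 for the 27 genes with a mean of at least 100, -0.86 for the 19 without the confounded mark and -0.59 for the 23 resolved genes. Leaving out each library in turn gave -0.73 to -0.52. The knockdown median was -0.67 without the confounded mark. The deletion median of the authors' values, -0.71, is that of Ldhb, a gene low in reads. With a pseudocount of 10 the Ldhb value was -0.24, and Ldhb is not among the 27 genes with a mean of at least 100. Beyond this, the cause of the moves was not tested. No value changed sign except that of Slc2a1 after knockdown on centring, from -0.0044 to 0.02. Limma called 0 of the 16944 resolved genes that average at least 1, while the deposited table called 286 of all 19404 listed genes. These sets differ, and how many of the 286 are among the 16944 was not counted. Without the confounded mark the calls were 162 after deletion and 28 after knockdown, against 286 and 43. No paired analysis was possible because the tables hold 1 mean per group and the recovered libraries cannot be tied to the replicate numbers of the labels. Means without counts limit what can be said of the knockdown libraries, whose depths were not resolved here.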
